A study of Mus musculus with 16 samples.

Results

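Multi-exon NONCODE transcripts are entries of NONCODE, a catalogue of long non-coding RNAs, whose genomic interval is longer than the transcript itself, so that part of the interval is left out of the RNA. Members were the entries with a NONMMUT identifier whose interval (end minus start plus 1) exceeded the listed length by more than 1 base and whose FPKM was 1 or more in 4 or more of the 16 libraries. FPKM is the number of reads on a transcript, divided by its length and by the reads of its library. The rule kept 1297 of the 15155 multi-exon NONCODE transcripts listed (8.56%), out of 44554 NONCODE transcripts and 51024 transcripts in all. Members were thus chosen by their FPKM values, so the levels over all 16 libraries are given as a description. The label of multi-exon, and so spliced, was checked against the listed lengths, and that check is given with the plot of the bases left out.

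The libraries were made from livers of C57BL/6J mice, with a single library per mouse and 4 groups of 4 mice. The first group had high-fat feed and resveratrol, a plant polyphenol, at 100 mg/kg per day by gavage. The second had high-fat feed and metformin, which is given to lower blood glucose, at 200 mg/kg per day by gavage. The third had high-fat feed alone and the last had ordinary feed. The labels give an age of postnatal day 21 for all 16 mice, and name neither sex, litter nor batch. Titles of the 4 high-fat samples begin alike, and no source used here says what that prefix stands for. Should it stand for a litter or cage, diet and litter cannot be told apart. In bulk liver, fewer cells of a type and less RNA per cell cannot be told apart.

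Long non-coding RNAs are transcripts without a known protein product. Some act in the nucleus on chromatin or splicing, some are the unspliced or spliced hosts of microRNAs, and for many only the act of transcription next to a coding gene is known. In hepatocytes they lie among genes of glucose, lipid and bile acid metabolism, many of which answer to feeding, insulin and glucagon. A gene symbol given with a member below names where the member lies. How strand was handled is stated by no source used here, so reads of a member and of an overlapping coding gene cannot be told apart.

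The members that differed between high-fat and ordinary feed included 27 with an end within 50 bases of a RefSeq gene start, 19 of them at genes that are not coding. The promoter windows of 5 such non-coding genes are shown because the results below turn on members with an end there. The first 4 were the non-coding genes with the strongest change among members called in the high-fat comparison, and BC024386 was added because its members moved in both directions. Each window runs from 250 bases before to 50 bases after the gene start, written 5′ to 3′ from RefSeq on GRCm38.p6. Capitals mark matches, on either strand, to AGGTCA (a core motif of nuclear receptors), TGTTTAC (a forkhead motif), CACGTG (an E-box) or TATAAA (a box found near many start sites). None of these matches overlap in the windows shown.
Gm30784, chr6:141866106-141866405, plus strand: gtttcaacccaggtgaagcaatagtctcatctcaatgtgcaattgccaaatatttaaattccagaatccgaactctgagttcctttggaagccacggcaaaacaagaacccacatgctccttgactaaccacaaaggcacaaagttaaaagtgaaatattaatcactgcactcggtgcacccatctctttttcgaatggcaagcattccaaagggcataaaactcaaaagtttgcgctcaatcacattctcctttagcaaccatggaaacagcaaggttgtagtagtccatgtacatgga
9030616G12Rik, chr10:128970947-128971246, plus strand: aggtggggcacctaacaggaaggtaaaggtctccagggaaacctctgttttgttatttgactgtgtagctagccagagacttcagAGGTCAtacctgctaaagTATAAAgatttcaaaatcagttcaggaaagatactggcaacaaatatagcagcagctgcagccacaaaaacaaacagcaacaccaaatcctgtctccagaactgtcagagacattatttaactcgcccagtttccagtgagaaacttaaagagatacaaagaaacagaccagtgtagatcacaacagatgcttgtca
Gm36691, chr2:173148083-173148382, minus strand: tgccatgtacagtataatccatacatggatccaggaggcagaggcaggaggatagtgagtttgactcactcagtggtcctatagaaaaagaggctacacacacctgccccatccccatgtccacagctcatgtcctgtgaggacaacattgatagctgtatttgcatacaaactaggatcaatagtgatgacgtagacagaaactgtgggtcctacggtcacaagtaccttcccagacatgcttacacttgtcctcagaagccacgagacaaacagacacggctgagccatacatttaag
Hnf4aos, chr2:163541672-163541971, minus strand: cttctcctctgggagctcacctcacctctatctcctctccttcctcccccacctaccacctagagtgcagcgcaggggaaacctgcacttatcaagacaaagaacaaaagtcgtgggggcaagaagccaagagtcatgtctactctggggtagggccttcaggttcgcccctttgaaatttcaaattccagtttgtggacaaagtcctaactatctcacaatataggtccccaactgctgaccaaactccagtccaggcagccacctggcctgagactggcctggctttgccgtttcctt
BC024386, chr7:140905771-140906070, plus strand: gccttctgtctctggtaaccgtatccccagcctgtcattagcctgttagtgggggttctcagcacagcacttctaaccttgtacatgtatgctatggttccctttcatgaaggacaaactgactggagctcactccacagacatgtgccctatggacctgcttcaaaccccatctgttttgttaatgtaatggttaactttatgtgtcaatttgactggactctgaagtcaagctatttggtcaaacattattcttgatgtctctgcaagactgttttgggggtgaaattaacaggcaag

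Of these windows, that of 9030616G12Rik held AGGTCA starting 165 bases and TATAAA starting 147 bases before the gene start. No match to the 4 motifs lay in the other windows. Among all 32851 RefSeq promoter windows of 300 bases, 16.3% held AGGTCA, 3.65% TGTTTAC, 7.15% CACGTG and 13.6% TATAAA on either strand. A match is a description of letters and does not show that a factor binds.

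Another set of sequences belongs to microRNAs whose hairpins lie inside members. RefSeq hairpins lay inside the intervals of 17 members and numbered 19. The files do not give the members' inner exons, so whether a hairpin is exonic or intronic cannot be read from them. The let-7 family is shown because members on different chromosomes hold copies with the same seed, and the miR-29 family and miR-802 because they are known in liver metabolism. Capitals mark the seed, bases 2 to 8, which pairs with target RNAs.
mmu-let-7b-5p: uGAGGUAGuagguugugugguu
mmu-let-7c-5p: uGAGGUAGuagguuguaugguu
mmu-let-7a-5p: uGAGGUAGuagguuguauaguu
mmu-let-7d-5p: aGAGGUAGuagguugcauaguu
mmu-let-7f-5p: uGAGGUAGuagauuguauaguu
mmu-miR-29b-3p: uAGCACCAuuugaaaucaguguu
mmu-miR-29c-3p: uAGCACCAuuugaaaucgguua
mmu-miR-802-5p: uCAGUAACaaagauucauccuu

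The hairpins of let-7b and let-7c-2 lay inside NONMMUT096254.1 at Lncppara, a long non-coding gene upstream of Ppara, the fatty acid sensor that switches on fat oxidation. This member was at 2.79, 2.21, 1.52 and 1.79 FPKM in the high-fat plus resveratrol libraries, 2.71, 2.59, 2.36 and 2.11 in the high-fat plus metformin libraries, 2.3998, 1.73, 2.44 and 1.96 in the high-fat libraries, against 1.99, 2.41, 2.399 and 2.97 in the ordinary-feed libraries. The groups overlapped, and no difference passed the test. The hairpins of let-7a-1, let-7d and let-7f-1 lay inside NONMMUT142731.1 on chromosome 13. It was at 1.19, 1.37, 1.63 and 1.29 FPKM in the high-fat plus resveratrol libraries, 1.89, 1.79, 1.604 and 1.37 in the high-fat plus metformin libraries, 1.34, 1.503, 1.54 and 0.973 in the high-fat libraries, against 1.49, 1.57, 1.57 and 1.82 in the ordinary-feed libraries, with all values between 0.973 and 1.89. NONMMUT004500.2, at the A330023F24Rik gene with the miR-29b-2 and miR-29c hairpins, averaged 0.762 ± 0.0602 FPKM in high-fat and 0.952 ± 0.214 FPKM in ordinary-feed libraries (SD, n = 4 each). NONMMUT027765.2, with the miR-802 hairpin, averaged 1.07 ± 0.543 FPKM in high-fat and 1.16 ± 0.614 FPKM in ordinary-feed libraries (SD, n = 4 each). Limma called neither of them in the high-fat comparison, with adjusted p = 0.429 for the miR-29 host and adjusted p = 0.875 for the miR-802 host.

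The interval exceeded the listed length by 1942 bases in the median, and by 5 to 463815 bases over the members. For 103 members (7.94%) the excess was under 50 bases and for 77 under 20, against 483 of all 15155 multi-exon NONCODE transcripts listed (3.19%) with an excess under 50. Mammalian introns are rarely so short. For these members the listed lengths therefore do not bear out the label of spliced, and they are named below with their excess. Of the 10 members with the highest mean FPKM, 4 had an excess under 50 bases. Just inside the rule on excess stood NONMMUT005999.2 and NONMMUT007472.2, both with 5 bases, and just outside NONMMUT000039.2 and NONMMUT000073.2, both with 0. On the rule for level, NONMMUT085003.1 and NONMMUT123364.1 lay just inside, with a fourth-highest FPKM of 1.0001 and 1.0009. NONMMUT002544.2 and NONMMUT085679.1 lay just outside, with 0.9996 and 0.9989.

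**Figure D1:**
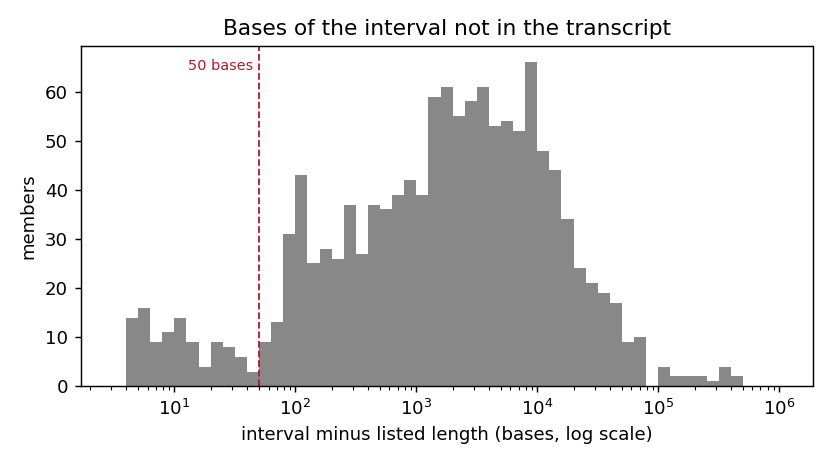
Histogram of the bases of each member's interval that are not in the listed transcript (x axis, log scale) over the 1297 members (y axis, number of members). The dashed line marks 50 bases: 103 members lie left of it, and the median is 1942 bases.

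Libraries held 17.2 M to 31.1 M reads (M for mega), recovered from the steps of the FPKM values, and members took 5.15% to 7.49% of the reads on listed transcripts. A pair of overlapping members in a ribosomal RNA repeat on chromosome 17, NONMMUT144872.1 and NONMMUT029636.2, alone held 37.9% to 71.7% of the members' reads, the highest share being that of high-fat library 4. This library stood apart in other ways. Its median ratio to the typical library over all tested features was 0.691, against 0.885 to 1.15 in the other 15, and 739 members reached an FPKM of 1 in it, against 846 to 998 in the others. Ordinary-feed libraries had median ratios of 1.08 to 1.15. Results that rest on the high-fat group are therefore given also without high-fat library 4 and with a median-ratio scaling of the libraries where these change the call.

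By position against GENCODE M21, 421 members (32.5%) were intergenic, 258 (19.9%) lay inside introns of coding genes, and 250 (19.3%) had an end in a coding exon. Another 227 (17.5%) spanned coding exons with both ends outside exons, and 141 (10.9%) had both ends in exons of the same coding gene. An end lay in an exon of an annotated long non-coding gene for 204 members. The interval and exon length of 17 members equalled those of a GENCODE transcript, and 6 of these transcripts are coding. The members formed 1056 groups of overlapping intervals, here called loci, of which 910 held a single member and the largest held 8, at Sfi1.

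Most members were of low level. The median of their mean FPKM was 1.43, on a mean of 39.9 reads per library for the median member, and 301 had a mean FPKM under 1. At the other end, 38 had a mean FPKM of 10 or more. All 4 groups held at least 1 library at an FPKM of 1 for 1032 members (79.6%). A single member reached that level in 1 group only, ordinary feed. In every library, 370 members reached it.

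The highest levels belonged to the ribosomal RNA pair. NONMMUT144872.1 was at 685, 823, 647 and 493 FPKM in the high-fat plus resveratrol libraries, 864, 882, 798 and 1087 in the high-fat plus metformin libraries, 615, 815, 799 and 1686 in the high-fat libraries, against 707, 1041, 1010 and 632 in the ordinary-feed libraries. High-fat library 4 was the highest of all 16, and the other 15 ranged from 493 to 1087. Next came NONMMUT049977.2 at Cep85, a centrosome gene, at 37.5, 58.6, 83.8 and 198 FPKM in the high-fat plus resveratrol libraries, 138, 228, 84.2 and 94.3 in the high-fat plus metformin libraries, 200, 92.1, 151 and 216 in the high-fat libraries, against 29.6, 50.9, 77.8 and 113 in the ordinary-feed libraries. Its groups overlapped, and its change in the high-fat comparison missed the threshold (log2 change 1.36, SE 0.51, adjusted p = 0.0817).

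NONMMUT020725.2, with an excess of 21 bases, covered Rpph1, the RNA of ribonuclease P that trims the 5′ end of transfer RNAs, and was at 46.2, 38.8, 34.3 and 41.2 FPKM in the high-fat plus resveratrol libraries, 55.5, 45.9, 57.2 and 56.2 in the high-fat plus metformin libraries, 54.9, 65.02, 57.1 and 80.8 in the high-fat libraries, against 50.9, 37.4, 50.3 and 37.1 in the ordinary-feed libraries. All 4 high-fat values lay above all 4 ordinary-feed values, but limma did not call it (log2 change 0.54, SE 0.18, adjusted p = 0.057). Some alternatives did call it, among them median-ratio scaling (adjusted p = 0.0452) and a filter of FPKM 2 (adjusted p = 0.0392). So did a pseudocount of 0.1 (adjusted p = 0.0422) and leaving out high-fat library 1 (adjusted p = 0.0467). NONMMUT150892.1 lay within Hamp, the gene of the iron hormone hepcidin, with both ends in its exons. It was at 41.95, 60.8, 49.7 and 27.6 FPKM in the high-fat plus resveratrol libraries, 37.9, 38.4, 63.1 and 28.2 in the high-fat plus metformin libraries, 23.8, 23.9, 19.9 and 104 in the high-fat libraries, against 45.6, 44.5, 36.9 and 22.3 in the ordinary-feed libraries, so that high-fat library 4 was more than 4 times as high as the other 3 of its group. NONMMUT024382.2, which covers the start of the pseudogene Cyp2d37-ps, averaged 73.2 ± 5.17 FPKM with resveratrol, 66.01 ± 15.3 with metformin, 65.6 ± 15.8 with high-fat feed alone and 50.7 ± 11.4 with ordinary feed (SD, n = 4 each).

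High-fat feed was set against ordinary feed with limma on log2(FPKM + 1), and changes below are on that scale, which understates the change of low members. Of the 1297 members, 182 were called at an adjusted p under 0.05, 65 higher and 117 lower in high-fat livers. That is 14.0% of members, where 14.6% of all 7413 features tested were called. Higher calls took 5.01% of members, where they took 2.83% of all features, and lower calls 9.02% of members, where they took 11.8% of all features. The median change was -0.07 over members and -0.16 over all features. With median-ratio scaling, which moved the median change to 0.09 over members and to -0.00153 over all features, 147 members were called, 106 higher and 41 lower. The split between directions thus depended on the scaling. The values of high-fat and ordinary-feed libraries did not overlap for 219 members (16.9%), where they did not overlap for 20.9% of all features. Members with the largest change are named below only where these groups did not overlap. A lack of overlap given for them therefore adds no support.

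Of the 182 calls, 65 held when each of the 8 libraries compared was left out in turn, and 58 held also with median-ratio scaling, 22 higher and 36 lower. Without high-fat library 4, 50 members were higher and 55 lower, and without ordinary-feed library 3, 29 were higher and 60 lower. Of the higher members, 17 differed by a log2 change of 1 or more, and 21 of the lower members by that much in the other direction.

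**Figure D2:**
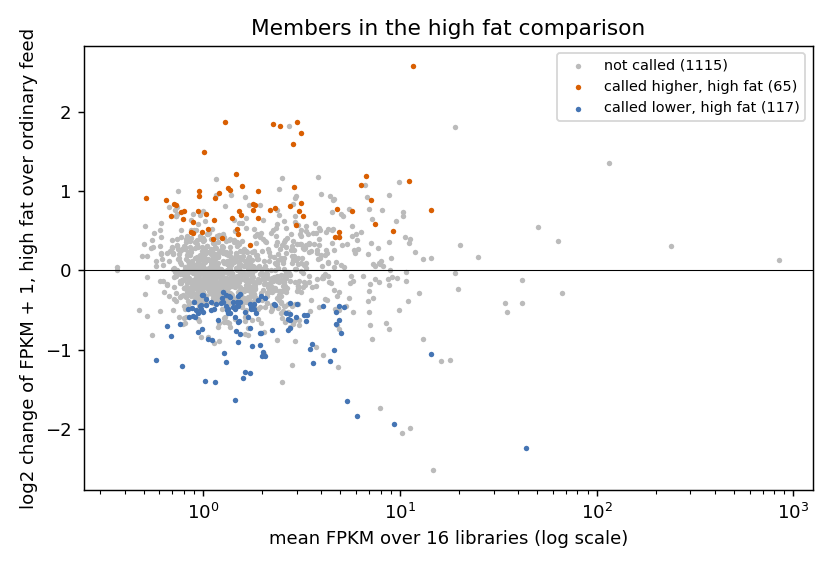
Each point is a member, with its mean FPKM over 16 libraries on the x axis (log scale) and its log2 change of FPKM + 1, high fat over ordinary feed, on the y axis. Orange points are the 65 called higher and blue points the 117 called lower in high-fat livers. Called members lie at all levels from 0.513 to 43.9 FPKM.

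By place, 43 of the 258 members inside introns were lower and 7 higher in high-fat livers. Among the 421 intergenic members, 26 were lower and 29 higher. Of the 204 with an end in a long non-coding exon, 9 were lower and 14 higher. Of the 103 with an excess under 50 bases, 11 were lower and 2 higher. Over all features, 11.8% were lower and 2.83% higher. With median-ratio scaling the intronic split became 9 lower and 15 higher, and without high-fat library 4 it became 11 lower and 7 higher, while the intergenic split without that library was 16 lower and 27 higher. The lean of intronic members to lower values thus depended on the scaling and on a single library. Single-interval NONCODE transcripts that passed the same level, 5096 in all, gave 652 lower and 114 higher calls, with a median change of -0.19. The difference between the kinds was not tested.

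The strongest rise was at C730036E19Rik, a long non-coding gene on chromosome 1. NONMMUT003114.2 (chr1:151138185-151143841) was at 9.64, 9.67, 7.32 and 19.05 FPKM in the high-fat plus resveratrol libraries, 12.1, 15.8, 7.204 and 15.6 in the high-fat plus metformin libraries, 28.6, 10.3, 28.8 and 14.1 in the high-fat libraries, against 1.603, 2.69, 2.27 and 2.76 in the ordinary-feed libraries (log2 change 2.58, SE 0.35, adjusted p = 0.00105). Every library of the 3 high-fat groups lay above every ordinary-feed library. This locus has 4 members, and NONMMUT003115.2 (log2 change 1.06, SE 0.33, adjusted p = 0.0444) and NONMMUT003116.2 (log2 change 1.82, SE 0.55, adjusted p = 0.0387) were called higher as well. The calls of these last 2 were lost without any 1 of 11 and 7 libraries, with adjusted p up to 0.11 and 0.102. Summed over the locus, the level was 16.4 ± 7.61 FPKM with resveratrol, 17.01 ± 5.502 FPKM with metformin, 29.1 ± 12.3 FPKM with high-fat feed alone and 3.39 ± 1.03 FPKM with ordinary feed (SD, n = 4 each).

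A gene of lipid synthesis held a pair of the higher members. Aacs encodes the cytosolic enzyme that activates acetoacetate for the synthesis of fatty acids and sterols. NONMMUT119417.1 spans an exon of it and was at 0.446, 0.394, 0.453 and 2.75 FPKM in the high-fat plus resveratrol libraries, 0.535, 1.43, 0.273 and 0.424 in the high-fat plus metformin libraries, 4.44, 1.72, 4.95 and 2.44 in the high-fat libraries, against 0, 0, 0.449 and 0.156 in the ordinary-feed libraries (log2 change 1.87, SE 0.33, adjusted p = 0.00437). NONMMUT119418.1, a separate interval further along Aacs, was at 0.0804, 0.284, 0.163 and 1.34 FPKM in the high-fat plus resveratrol libraries, 0.578, 0.868, 0.148 and 0.459 in the high-fat plus metformin libraries, 4.43, 1.64, 2.98 and 2.09 in the high-fat libraries, against 0.197, 0.133, 0.162 and 0.7602 in the ordinary-feed libraries (log2 change 1.497, SE 0.27, adjusted p = 0.00493). For both, all high-fat values lay above all ordinary-feed values, which adds no support, since members of large change were named for it. Outside high-fat feed alone, NONMMUT119418.1 reached an FPKM of 1 only in high-fat plus resveratrol library 4. It thus met the rule on level through the libraries of high-fat feed alone. With means of 9.50 and 13.8 reads per library, these levels rest on few reads.

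Pck1 encodes the cytosolic phosphoenolpyruvate carboxykinase that controls the rate of gluconeogenesis, and fasting raises its messenger. Upstream of it lay a locus of 6 overlapping members (chr2:173140323-173148687 for the longest), all of which were called lower in high-fat livers. The members' nearest ends were between 4361 and 4939 bases from Pck1. Summed over the 6, the level was 9.79, 7.23, 5.81 and 5.57 FPKM in the high-fat plus resveratrol libraries, 4.64, 3.93, 6.41 and 6.16 in the high-fat plus metformin libraries, 1.72, 2.49, 1.36 and 2.23 in the high-fat libraries, against 14.0, 13.2, 13.1 and 10.3 in the ordinary-feed libraries. The 4 groups thus did not overlap except for resveratrol with metformin. Overlapping members share reads and are not independent of each other.

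Among them, NONMMUT041549.2 was at 0.833, 0.758, 1.06 and 0.333 FPKM in the high-fat plus resveratrol libraries, 0.981, 1.06, 1.39 and 1.48 in the high-fat plus metformin libraries, 0.0802, 0.456, 0.0398 and 0.571 in the high-fat libraries, against 2.31, 2.38, 2.52 and 2.25 in the ordinary-feed libraries (log2 change -1.41, SE 0.15, adjusted p = 0.000238). NONMMUT041547.2, with the same interval and another length, was at 1.92, 1.71, 1.79 and 2.01 FPKM in the high-fat plus resveratrol libraries, 1.32, 0.949, 1.33 and 1.38 in the high-fat plus metformin libraries, 0.873, 0.476, 0.589 and 0.709 in the high-fat libraries, against 4.03, 3.64, 2.94 and 1.99 in the ordinary-feed libraries (log2 change -1.298, SE 0.14, adjusted p = 0.000238). NONMMUT041556.2 has an end at the start of Gm36691 and was at 3.34, 1.94, 0.863 and 0 FPKM in the high-fat plus resveratrol libraries, 0.573, 0.904, 1.26 and 1.21 in the high-fat plus metformin libraries, 0.126, 0.853, 0 and 0.261 in the high-fat libraries, against 2.699, 3.26, 3.13 and 2.799 in the ordinary-feed libraries (log2 change -1.64, SE 0.33, adjusted p = 0.00874). The calls of NONMMUT041553.2 and NONMMUT110312.1 were lost without high-fat library 4 (adjusted p = 0.0558 and adjusted p = 0.0526) and with some other libraries left out, while those of the other 4 held for each library left out. The call of NONMMUT041553.2 was lost with median-ratio scaling too (adjusted p = 0.062), and both were lost once high-fat library 4 was also left out (adjusted p = 0.0846 and adjusted p = 0.0746).

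**Figure D3:**
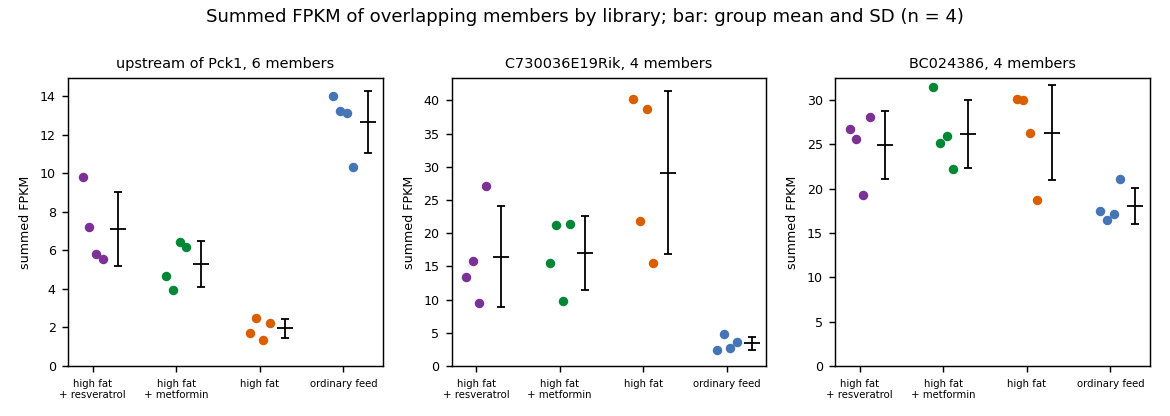
Summed FPKM (y axes, from 0) of the overlapping members at 3 loci, 1 point per library, for high fat plus resveratrol, high fat plus metformin, high fat and ordinary feed; black bars are the group mean and SD of 4 libraries. Upstream of Pck1 the high-fat libraries lie at 1.36 to 2.49 and the ordinary-feed libraries at 10.3 to 14.0, while at C730036E19Rik the high-fat libraries lie at 15.6 to 40.2 and the ordinary-feed libraries at 2.47 to 4.78.

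Further upstream of Pck1 lay a locus of 5 members at Ctcfl, a germline paralogue of the insulator protein gene Ctcf. NONMMUT108498.1, at the antisense gene Ctcflos, was at 2.17, 1.63, 2.77 and 1.81 FPKM in the high-fat libraries, against 7.97, 6.19, 5.74 and 4.15 in the ordinary-feed libraries (log2 change -1.17, SE 0.21, adjusted p = 0.0055). NONMMUT041539.2 was at 1.36, 0.792, 1.21 and 1.31 FPKM in the high-fat libraries, against 3.27, 3.08, 4.01 and 3.26 in the ordinary-feed libraries (log2 change -1.03, SE 0.18, adjusted p = 0.00437). High-fat and ordinary-feed values did not overlap for either member.

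Members at the amino acid genes Hdc, Cps1 and Gldc were called lower in high-fat livers. No member of the loci at Nags, Bcat2, Haao and Gcdh was called. Hdc encodes histidine decarboxylase, which makes histamine. NONMMUT146430.1 (chr2:126591782-126595454) spans exons of Hdc and was at 7.51, 8.76, 6.38 and 6.8999 FPKM in the high-fat plus resveratrol libraries, 7.75, 9.08, 7.13 and 5.08 in the high-fat plus metformin libraries, 3.44, 5.998, 4.79 and 2.28 in the high-fat libraries, against 22.2, 12.7, 23.98 and 14.9 in the ordinary-feed libraries (log2 change -1.94, SE 0.25, adjusted p = 0.00101). Cps1 encodes the mitochondrial carbamoyl phosphate synthetase that opens the urea cycle. NONMMUT001352.2, which spans part of Cps1, was at 1.65, 2.45, 2.29 and 2.703 FPKM in the high-fat plus resveratrol libraries, 1.69, 2.16, 1.31 and 1.21 in the high-fat plus metformin libraries, 0.1401, 0.153, 0.208 and 0.145 in the high-fat libraries, against 0.276, 4.27, 2.34 and 2.52 in the ordinary-feed libraries (log2 change -1.36, SE 0.30, adjusted p = 0.0126). Ordinary-feed library 1 was far below the other 3 of its group, and its value of 0.276 lay just above the high-fat values. The call was lost with no filter on low values (adjusted p = 0.0556) and with only these 2 groups in the fit (adjusted p = 0.0627). Upstream of Cps1 by 6481 bases, NONMMUT077969.1 was at 0.0421, 0.0613, 0.167 and 0 FPKM in the high-fat libraries, against 1.22, 1.97, 0.863 and 1.42 in the ordinary-feed libraries (log2 change -1.13, SE 0.21, adjusted p = 0.00602). NONMMUT106118.1, in an intron of Gldc, a subunit of the glycine cleavage system, was at 0.8199, 0.478, 0.488 and 0.339 FPKM in the high-fat libraries, against 1.51, 2.75, 3.72 and 2.03 in the ordinary-feed libraries (log2 change -1.16, SE 0.20, adjusted p = 0.00431), on a mean of 7.69 reads per library.

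Transport, conjugation and drug metabolism were represented by lower members. Slco1a4 encodes a transporter for bile acids and other organic anions. The RefSeq start of Gm30784, 10 kb upstream of it, is shared by 2 members. NONMMUT123262.1 was at 8.94, 4.94, 10.7 and 5.82 FPKM in the high-fat plus resveratrol libraries, 3.83, 3.33, 6.17 and 3.04 in the high-fat plus metformin libraries, 2.299, 2.63, 3.08 and 0.851 in the high-fat libraries, against 9.92, 12.7, 13.8 and 5.5999 in the ordinary-feed libraries (log2 change -1.83, SE 0.31, adjusted p = 0.0043). All ordinary-feed values lay above all high-fat values, and resveratrol values lay between 4.94 and 10.7. NONMMUT059333.2 averaged 0.4803 ± 0.338 FPKM in high-fat and 1.66 ± 0.512 FPKM in ordinary-feed libraries (log2 change -0.86, SE 0.20, adjusted p = 0.0154), and its call was lost with no filter (adjusted p = 0.0681) and with median-ratio scaling and no high-fat library 4 (adjusted p = 0.0617). Acnat1 encodes an acyltransferase of peroxisomes. NONMMUT047232.2, upstream of it by 4948 bases, was at 17.4, 20.2, 16.5 and 12.2 FPKM in the high-fat plus resveratrol libraries, 15.7, 12.6, 11.03 and 15.2 in the high-fat plus metformin libraries, 8.87, 9.303, 9.56 and 6.55 in the high-fat libraries, against 17.6, 16.8, 23.4 and 18.04 in the ordinary-feed libraries (log2 change -1.06, SE 0.18, adjusted p = 0.00437). NONMMUT121631.1, which spans part of the cytochrome gene Cyp3a25, was at 0.217, 1.26, 0.645 and 0.448 FPKM in the high-fat libraries, against 1.99, 4.405, 2.81 and 1.098 in the ordinary-feed libraries (log2 change -1.08, SE 0.25, adjusted p = 0.0157). Its call was lost with only these 2 groups in the fit (adjusted p = 0.0644), with no filter (adjusted p = 0.0709) and with median-ratio scaling and no high-fat library 4 (adjusted p = 0.0654).

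Among intergenic members, NONMMUT008193.2 has an end at the start of 9030616G12Rik, whose window above holds AGGTCA and TATAAA. It was at 4.297, 4.46, 3.82 and 3.87 FPKM in the high-fat plus resveratrol libraries, 3.19, 2.45, 5.72 and 2.04 in the high-fat plus metformin libraries, 2.81, 4.46, 4.67 and 0.8286 in the high-fat libraries, against 11.5, 10.5, 10.4 and 11.9 in the ordinary-feed libraries (log2 change -1.65, SE 0.30, adjusted p = 0.00591). The 4 ordinary-feed values lay within 10.4 to 11.9, and no other library reached 6. NONMMUT029447.2, with an excess of 47 bases, lies downstream of H2-Q10, a class I histocompatibility gene secreted by liver. It was at 39.1, 17.6, 57.7 and 15.4 FPKM in the high-fat plus resveratrol libraries, 21.7, 15.4, 63.2 and 28.8 in the high-fat plus metformin libraries, 18.4, 20.2, 30.2 and 9.74 in the high-fat libraries, against 96.2, 111, 88.8 and 69.7 in the ordinary-feed libraries (log2 change -2.24, SE 0.46, adjusted p = 0.00937). Class I genes are near-identical copies, so the authors' counting could split reads between them. NONMMUT015589.2, on chromosome 12 and far from any coding gene, was at 1.34, 2.21, 1.87 and 1.08 FPKM in the high-fat plus resveratrol libraries, 2.25, 1.804, 1.23 and 2.22 in the high-fat plus metformin libraries, 2.81, 1.14, 1.86 and 2.58 in the high-fat libraries, against 0.4097, 0.275, 0.168 and 0.351 in the ordinary-feed libraries (log2 change 1.22, SE 0.18, adjusted p = 0.00247). Every library on high-fat feed, with or without a drug, lay above every ordinary-feed library.

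Hnf4aos is transcribed antisense to Hnf4a, the gene of a nuclear receptor that maintains hepatocyte identity. NONMMUT110083.1 (chr2:163493808-163541721), which ends at the Hnf4aos start, was at 7.59, 7.79, 12.2 and 13.9 FPKM in the high-fat plus resveratrol libraries, 13.5, 19.9, 13.3 and 12.6 in the high-fat plus metformin libraries, 14.96, 11.8, 11.7 and 14.7 in the high-fat libraries, against 2.78, 5.11, 5.49 and 10.96 in the ordinary-feed libraries (log2 change 1.13, SE 0.29, adjusted p = 0.0231). High-fat values lay above ordinary-feed values. The call was lost without any 1 of 4 libraries, high-fat library 4 among them, with adjusted p up to 0.0568. The other 2 members of this locus were not called.

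At C4a, a complement gene copy in the histocompatibility region, a pair of members that do not overlap were called higher. For both, the coding gene given by the placement against GENCODE M21 was Stk19. NONMMUT029339.2 was at 1.88, 1.35, 1.55 and 3.03 FPKM in the high-fat plus resveratrol libraries, 1.37, 2.39, 1.51 and 5.36 in the high-fat plus metformin libraries, 3.07, 3.19, 3.47 and 17.3 in the high-fat libraries, against 0.575, 0.484, 1.06 and 0.616 in the ordinary-feed libraries (log2 change 1.87, SE 0.42, adjusted p = 0.0134). NONMMUT029338.2 was at 1.22, 2.49, 1.53 and 2.696 FPKM in the high-fat plus resveratrol libraries, 1.101, 1.92, 1.12 and 4.03 in the high-fat plus metformin libraries, 3.08, 2.63, 3.05 and 9.896 in the high-fat libraries, against 0.231, 0.776, 0.379 and 0.297 in the ordinary-feed libraries (log2 change 1.85, SE 0.34, adjusted p = 0.00573). High-fat library 4 was the highest of 16 for both, and both calls held without it. C4a and C4b are near-identical, so these levels are uncertain. NONMMUT008654.2, with an excess of 6 bases, lies at the start of Egfr, a growth factor receptor of hepatocytes. It was at 3.196, 7.997, 6.13 and 5.21 FPKM in the high-fat libraries, against 0.497, 0.706, 0.545 and 2.51 in the ordinary-feed libraries (log2 change 1.73, SE 0.50, adjusted p = 0.0334), and its call was lost when any 1 of 6 libraries was left out, with adjusted p up to 0.0781.

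Of the 13 loci with at least 2 called members, 12 had all of these in 1 direction. The exception was BC024386, upstream of Cox8b, a cytochrome oxidase subunit gene. NONMMUT064162.2 was at 16.3, 14.5, 11.6 and 18.5 FPKM in the high-fat plus resveratrol libraries, 19.8, 12.9, 13.6 and 12.7 in the high-fat plus metformin libraries, 19.8, 23.5, 15.4 and 12.1 in the high-fat libraries, against 10.1, 7.599, 9.77 and 11.7 in the ordinary-feed libraries and was called higher (log2 change 0.77, SE 0.22, adjusted p = 0.0337). NONMMUT126346.1, with an end at the same start, was at 1.09, 1.25, 1.55 and 0.605 FPKM in the high-fat plus resveratrol libraries, 1.77, 1.18, 2.103 and 2.28 in the high-fat plus metformin libraries, 1.02, 1.93, 0.707 and 0.421 in the high-fat libraries, against 1.74, 1.89, 2.09 and 2.52 in the ordinary-feed libraries and was called lower (log2 change -0.65, SE 0.20, adjusted p = 0.0452). The first call was lost without any 1 of 5 libraries, with adjusted p up to 0.0928. The second was lost with median-ratio scaling (adjusted p = 0.131) and without any 1 of 12 libraries, with adjusted p up to 0.13. Summed over its 4 members, the locus was at 24.9 ± 3.87 FPKM with resveratrol, 26.2 ± 3.87 FPKM with metformin, 26.3 ± 5.35 FPKM with high-fat feed alone and 18.05 ± 2.05 FPKM with ordinary feed (SD, n = 4 each).

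At Malat1, an abundant nuclear RNA linked to splicing, NONMMUT033611.2 was at 0.0216, 71.1, 0.235 and 0.0266 FPKM in the high-fat plus resveratrol libraries, 0.285, 0.156, 31.96 and 70.6 in the high-fat plus metformin libraries, 2.901, 0.265, 1.402 and 14.4 in the high-fat libraries, against 0.814, 0.0238, 48.96 and 44.4 in the ordinary-feed libraries. NONMMUT033610.2 was at 43.5, 19.97, 0 and 21.4 FPKM in the high-fat plus resveratrol libraries, 29.9, 0, 16.2 and 0 in the high-fat plus metformin libraries, 0, 3.53, 16.3 and 0 in the high-fat libraries, against 11.5, 41.3, 4.63 and 27.6 in the ordinary-feed libraries. The first was under 1 FPKM in some libraries of each group and reached 14.4 FPKM or more in others. The second was listed at 0 in some libraries of the 3 high-fat groups. NONMMUT033603.2, the member with the longest excess there, kept between 9.60 and 17.9 FPKM in all 16. None of the 5 Malat1 members was called in the high-fat comparison, although their changes ran from -2.52 to 1.82. Summed over the 5 members, the locus was at 58.3 ± 32.4 FPKM with resveratrol, 50.4 ± 28.2 FPKM with metformin, 33.2 ± 8.82 FPKM with high-fat feed alone and 59.5 ± 23.1 FPKM with ordinary feed (SD, n = 4 each). The sum ranged from 15.6 to 104 FPKM over the 16 libraries, and the groups overlapped.

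**Figure D4:**
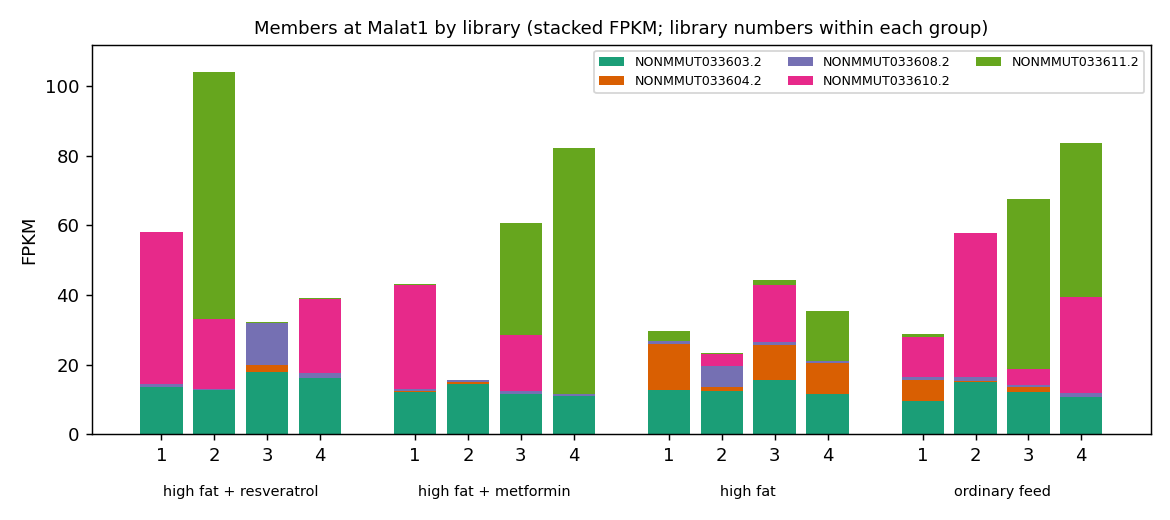
Stacked FPKM of the 5 members at Malat1 (y axis) in each of the 16 libraries (x axis, numbered within each group), 1 colour per member. NONMMUT033603.2 lies between 9.60 and 17.9 throughout, while NONMMUT033610.2 and NONMMUT033611.2 range from 0 to 43.5 and from 0.0216 to 71.1.

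Of the lists of metabolic and regulatory genes, that of gluconeogenesis and glycolysis had 11 members, of which the 6 upstream of Pck1 were lower. The zonation list had only those 6 lower members. Lipogenesis had 6 members, of which the 2 at Aacs were higher. Both members of the amino acid and urea cycle list were lower, at Hdc and Cps1. One of 12 members at liver transcription factors was higher, that at Hnf4aos. One of 4 members at inflammation genes was lower, NONMMUT113607.1 in an intron of Il6ra, the interleukin 6 receptor, which was at 1.54, 0.888, 0.806 and 0.671 FPKM in the high-fat libraries, against 1.71, 5.17, 2.89 and 3.38 in the ordinary-feed libraries (log2 change -1.07, SE 0.25, adjusted p = 0.0153). That call was lost with no filter on low values (adjusted p = 0.0692) and with median-ratio scaling and no high-fat library 4 (adjusted p = 0.0579). One of 3 members at clock genes was lower, NONMMUT024316.2 (log2 change -0.43, SE 0.13, adjusted p = 0.0348), whose interval spans several coding genes, Tef among them. Its call was lost with median-ratio scaling (adjusted p = 0.302), with quantile normalization (adjusted p = 0.246) and with no filter (adjusted p = 0.152). It was lost too with only these 2 groups in the fit (adjusted p = 0.12) and without any 1 of 5 libraries, with adjusted p up to 0.0966. Insulin and growth factor signalling had 4 members, of which that at Egfr was higher. No member was called at fatty acid oxidation (3 members), bile acid and drug metabolism (3), antioxidant and endoplasmic reticulum stress genes (4), AMPK and sirtuin genes (1) or known long non-coding RNAs (17). These counts stand against 2.83% higher and 11.8% lower among all features.

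Markers of other cells gave no member. Of 9 hepatocyte marker genes, 3 had members, 5 in all, 1 higher and 1 lower. Markers of Kupffer cells, stellate cells, endothelium, cholangiocytes, lymphocytes, erythroid cells, pancreas and adipocytes had 0 members, so that shifts in those cells could not be read from members. Levels of coding genes were not used here, so the liver label was not checked on coding markers.

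Of the 17 members with a hairpin, 3 were called, all lower in high-fat livers, where 14.6% of all features were called and 11.8% were lower. NONMMUT008165.2, in Esyt1 with the miR-6916 hairpin, was at 0.644, 0.932, 0.473 and 0.529 FPKM in the high-fat plus resveratrol libraries, 0.676, 1.03, 1.13 and 0.817 in the high-fat plus metformin libraries, 0.702, 0.5598, 0.4805 and 0.846 in the high-fat libraries, against 1.8, 2.11, 1.66 and 1.41 in the ordinary-feed libraries (log2 change -0.74, SE 0.12, adjusted p = 0.00339). NONMMUT099400.1, whose interval of 464027 bases holds the Mir6364 hairpin, was at 2.497, 1.97, 2.48 and 2.58 FPKM in the high-fat libraries, against 3.83, 8.82, 6.06 and 8.1997 in the ordinary-feed libraries (log2 change -1.14, SE 0.20, adjusted p = 0.00479). NONMMUT113303.1, with the hairpin named Gm51274, was lower too (log2 change -0.57, SE 0.15, adjusted p = 0.0268), though not with median-ratio scaling (adjusted p = 0.153) nor without any 1 of 3 libraries, with adjusted p up to 0.0787.

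**Figure D5:**
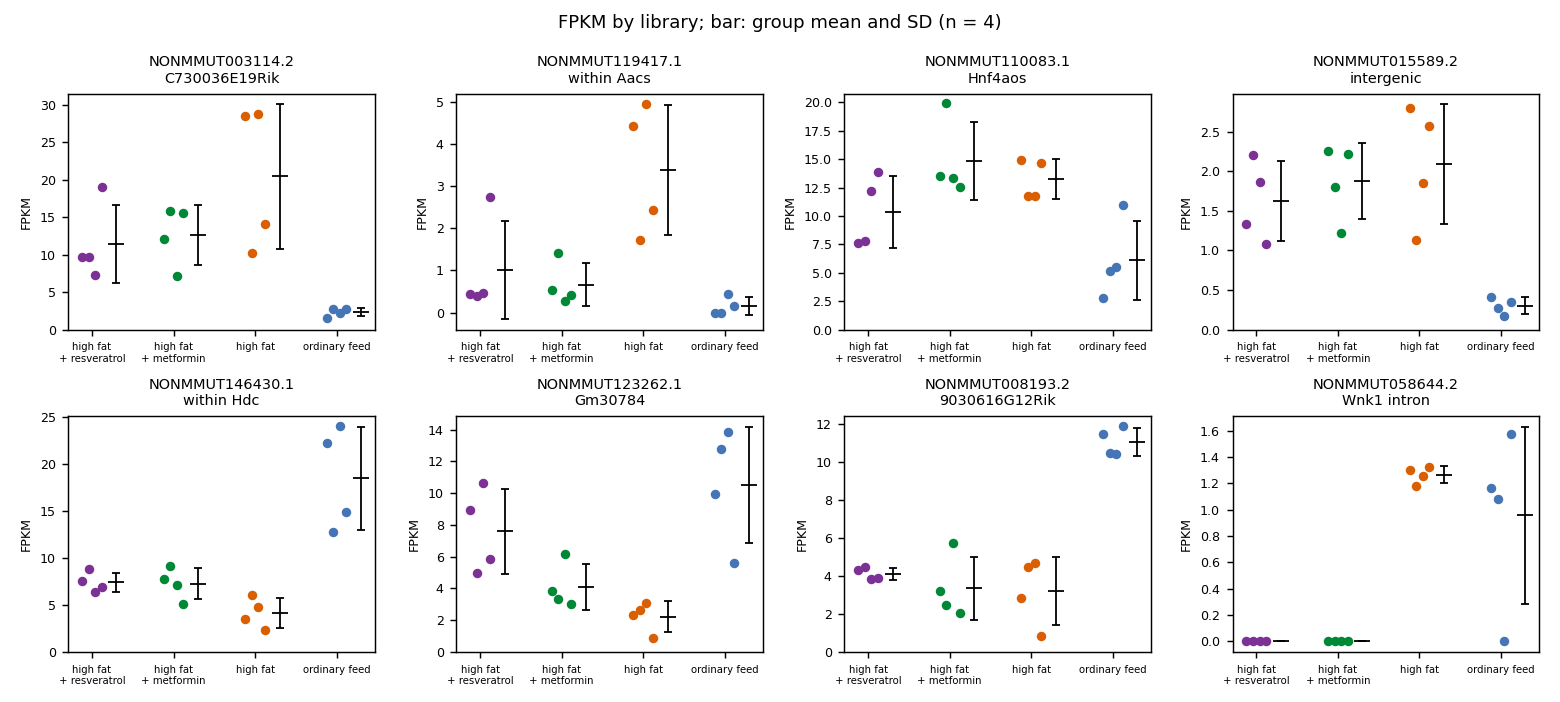
FPKM of 8 members (y axes) in each library of high fat plus resveratrol, high fat plus metformin, high fat and ordinary feed; points are libraries and black bars the group mean and SD of 4. NONMMUT003114.2 lies at 10.3 to 28.8 in high-fat and 1.60 to 2.76 in ordinary-feed libraries, and NONMMUT008193.2 at 0.8286 to 4.67 in high-fat and 10.4 to 11.9 in ordinary-feed libraries.

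Resveratrol was then set against high-fat feed alone. No member was called by limma, where 0.0809% of all features were called. An unadjusted p under 0.05 belonged to 171 of the 1297 members and to 1200 of all 7413 features. The 6 members with the smallest p did not pass. In the Wnk1 intron, NONMMUT058644.2, whose interval holds Mir706, was listed at 0 in all 8 libraries with a drug. It was at 1.304, 1.18, 1.25 and 1.33 FPKM in the high-fat libraries, against 1.17, 1.08, 0 and 1.58 in the ordinary-feed libraries. The adjusted p was 0.0573 for resveratrol and 0.0767 for metformin over high-fat feed, and both passed with median-ratio scaling (adjusted p = 0.0287 and adjusted p = 0.0329). An exact 0 can be a failed estimate, so no fold is given.

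NONMMUT119418.1 at Aacs had a log2 change of -1.39 with resveratrol (SE 0.27, adjusted p = 0.0611), with values given above. NONMMUT041547.2 upstream of Pck1 had a log2 change of 0.79 (SE 0.14, adjusted p = 0.0515), and passed without high-fat library 1 (adjusted p = 0.0291). NONMMUT001352.2 at Cps1 had a log2 change of 1.48 (SE 0.30, adjusted p = 0.0714), and its 4 resveratrol values of 1.65 to 2.70 lay above the 4 high-fat values of 0.140 to 0.208. NONMMUT134394.1 at Ptpn9 was at 1.17, 1.89, 1.71 and 1.53 FPKM in the high-fat plus resveratrol libraries, 0.9503, 1.097, 1.34 and 1.39 in the high-fat plus metformin libraries, 0.933, 0.524, 0.635 and 0.248 in the high-fat libraries, against 1.61, 1.44, 1.24 and 1.38 in the ordinary-feed libraries, with a log2 change of 0.71 (SE 0.13, adjusted p = 0.0525). NONMMUT047232.2 near Acnat1 had a log2 change of 0.87 (SE 0.18, adjusted p = 0.0805). Each of the 6 passed under at least 1 alternative. Leaving out resveratrol library 4 gave 8 calls, these among them except that at Cps1, which passed without ordinary-feed library 1 (adjusted p = 0.000666). For each of the 6, the resveratrol and high-fat values did not overlap. The 6 were chosen by the smallest p of this same comparison, so that adds no support.

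Metformin against high-fat feed alone called no member either, where 0.0270% of all features were called. An unadjusted p under 0.05 belonged to 120 of the 1297 members and to 554 of all 7413 features. NONMMUT121978.1, an intergenic member on chromosome 6, was at 1.43, 1.28, 1.46 and 1.01 FPKM in the high-fat plus metformin libraries, 2.48, 2.29, 2.29 and 2.22 in the high-fat libraries, against 1.52, 1.898, 1.43 and 1.86 in the ordinary-feed libraries, with a log2 change of -0.54 over high-fat feed (SE 0.10, adjusted p = 0.0767), and passed with median-ratio scaling (adjusted p = 0.0268). It overlaps NONMMUT056185.2 at Lncpint and was called higher in high-fat over ordinary feed (log2 change 0.31, SE 0.10, adjusted p = 0.0406). That call was lost with no filter (adjusted p = 0.186) and without any 1 of 7 libraries, with adjusted p up to 0.108. NONMMUT041549.2 upstream of Pck1 had a log2 change of 0.81 (SE 0.15, adjusted p = 0.0767), and passed without high-fat library 4 (adjusted p = 0.0397). NONMMUT119418.1 at Aacs had a log2 change of -1.29 (SE 0.27, adjusted p = 0.134), and passed with the same scaling (adjusted p = 0.0485). NONMMUT093160.1, in an intron of Zfp395, was at 3.58, 2.63, 3.46 and 2.56 FPKM in the high-fat plus metformin libraries, against 1.91, 1.36, 1.81 and 1.86 in the high-fat libraries, and NONMMUT006046.2, in an intron of the adipogenic regulator Arid5b with an excess of 14 bases, at 2.14, 2.53, 1.45 and 2.504 FPKM in the high-fat plus metformin libraries, against 3.26, 4.85, 4.62 and 3.06 in the high-fat libraries. Their adjusted p were 0.204 and 0.213.

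Each drug group was also set against ordinary feed, and these comparisons share the ordinary-feed libraries with each other and with the high-fat comparison. With resveratrol 8 members were called, 5 higher and 3 lower, or 0.617% of members where 0.283% of all features were called. NONMMUT003114.2 at C730036E19Rik (log2 change 1.83, SE 0.35, adjusted p = 0.0389), NONMMUT015589.2 on chromosome 12 (log2 change 0.99, SE 0.18, adjusted p = 0.0377) and NONMMUT018230.2 in an intron of the potassium chloride cotransporter gene Slc12a7 (log2 change 0.82, SE 0.13, adjusted p = 0.0234) were higher. NONMMUT018230.2 was at 9.98, 11.2, 8.205 and 8.72 FPKM in the high-fat plus resveratrol libraries, 7.59, 7.51, 8.32 and 6.904 in the high-fat plus metformin libraries, 8.13, 6.54, 8.99 and 8.14 in the high-fat libraries, against 5.23, 5.54, 4.48 and 4.48 in the ordinary-feed libraries, so that no library on high-fat feed overlapped ordinary feed. NONMMUT041549.2 upstream of Pck1 (log2 change -0.96, SE 0.15, adjusted p = 0.0234), NONMMUT101464.1 in the kinase gene Prkd3 (log2 change -1.02, SE 0.17, adjusted p = 0.0261) and NONMMUT008165.2 at Esyt1 (log2 change -0.74, SE 0.12, adjusted p = 0.0234) were lower. NONMMUT101464.1 was at 1.42, 1.25, 1.23 and 0.561 FPKM in the high-fat plus resveratrol libraries, 1.09, 2.07, 1.39 and 1.06 in the high-fat plus metformin libraries, 0.567, 0.895, 0.937 and 0.586 in the high-fat libraries, against 4.59, 2.67, 2.75 and 3.19 in the ordinary-feed libraries. All 8 were called in the high-fat comparison too. The count was 0 without resveratrol library 1 or 4 and 14 without high-fat library 4.

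With metformin 7 members were called against ordinary feed, 3 higher and 4 lower, or 0.540% of members where 0.297% of all features were called. NONMMUT015589.2 (log2 change 1.13, SE 0.18, adjusted p = 0.0191) and NONMMUT003114.2 (log2 change 1.997, SE 0.35, adjusted p = 0.0322) were higher. NONMMUT041547.2 upstream of Pck1 (log2 change -0.86, SE 0.14, adjusted p = 0.0191), NONMMUT041539.2 at Ctcfl (log2 change -0.96, SE 0.18, adjusted p = 0.0444) and NONMMUT008193.2 at 9030616G12Rik (log2 change -1.54, SE 0.30, adjusted p = 0.0491) were lower. The count was 0 without ordinary-feed library 2 or metformin library 1, 2 or 4, and 47 without high-fat library 4, which is in neither group but enters the shared spread. No member was called between resveratrol and metformin, where 0% of all features were called. An unadjusted p under 0.05 belonged to 78 of the 1297 members and to 471 of all 7413 features.

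Any difference among the 4 groups was called for 51 members, or 3.93%, where 3.13% of all features were called. The 5 smallest adjusted p belonged to members described above, at C730036E19Rik, upstream of Pck1, at Prkd3 and at Hdc. The count ran from 9 without ordinary-feed library 2 to 60 without resveratrol library 4.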

How the data were processed

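Transcript levels in 16 mouse liver libraries were deposited by the authors as FPKM per transcript. The submitters' processing notes name Bowtie 0.12.2, Cufflinks 2.1.1 and GRCm38/mm10. Which annotation release and filters were used, and how strand was handled, is stated by no source used here. Each FPKM times its length came out, within 0.05 of a read, as a multiple of what 1 read is worth in that library for nearly all values, which gave the reads behind each value. Members were placed against GENCODE M21, whose coordinates equalled the deposited ones for 99.0% of 6306 Ensembl transcripts matched by ID. Log2(FPKM + 1) was tested with limma 3.58.1 (R 4.3.3, trended variance) in 1 fit of 16 libraries with 12 residual degrees of freedom. Tested were the 7413 features with an FPKM of 1 in 4 libraries, Ensembl transcripts being summed per gene. P-values were adjusted by Benjamini-Hochberg over all of them, and calls are at an adjusted p under 0.05. The fit was tested on simulated data.

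Named members were, by rule, the 10 with the highest level, those with the largest change without overlap of the groups, the 6 smallest p where fewer than 6 were called, the 5 smallest adjusted p of the other comparisons and members at listed genes. Other members of the loci, promoters and microRNA hosts described beside these were chosen after their values were seen. Members and gene lists were chosen with earlier results of these data known. Nothing in the labels says whether mice of a group shared a litter, so p-values measure the spread between these samples. Alternatives covered the pseudocount, the filter, 2 scalings, the groups fitted and each library left out. Results for some members and listed genes are not reported here.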

Additional observations from a re-analysis of the deposited data

Results flagged for a closer look

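Among the members given with values, 16 of 196 groups of 4 libraries held a library that stood far from the other 3. Chance alone flags about 1 in 20 such groups where values are normal and independent. Some of these members overlap and share reads, and many were chosen by their values, so these shares cannot be compared. NONMMUT008654.2 stood at 2.51 FPKM in ordinary-feed library 4, against 0.497 to 0.706 FPKM in the other 3. In high-fat plus metformin library 2, NONMMUT020725.2 was at 45.9 FPKM, with the other 3 between 55.5 and 57.2 FPKM. For NONMMUT029338.2, high-fat library 4 had 9.9 FPKM and the other 3 had 2.63 to 3.08 FPKM. NONMMUT029339.2 stood at 17.3 FPKM in high-fat library 4, against 3.07 to 3.47 FPKM in the other 3. In high-fat plus resveratrol library 2, NONMMUT033611.2 was at 71.1 FPKM, with the other 3 between 0.0216 and 0.235 FPKM. For NONMMUT041547.2, high-fat plus metformin library 2 had 0.949 FPKM and the other 3 had 1.32 to 1.38 FPKM. NONMMUT064162.2 stood at 19.8 FPKM in high-fat plus metformin library 1, against 12.7 to 13.6 FPKM in the other 3. In high-fat plus metformin library 3, NONMMUT077969.1 was at 0.745 FPKM, with the other 3 between 0 and 0.0858 FPKM. For NONMMUT099400.1, high-fat library 2 had 1.97 FPKM and the other 3 had 2.48 to 2.58 FPKM.

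NONMMUT110083.1 stood at 19.9 FPKM in high-fat plus metformin library 2, against 12.6 to 13.5 FPKM in the other 3. In high-fat library 2, NONMMUT110312.1 was at 0.232 FPKM, with the other 3 between 0.149 and 0.159 FPKM. For NONMMUT113607.1, high-fat plus metformin library 1 had 2.66 FPKM and the other 3 had 1.76 to 1.82 FPKM. NONMMUT119417.1 stood at 2.75 FPKM in high-fat plus resveratrol library 4, against 0.394 to 0.453 FPKM in the other 3. In high-fat plus resveratrol library 4, NONMMUT119418.1 was at 1.34 FPKM, with the other 3 between 0.0804 and 0.284 FPKM. For NONMMUT119418.1, ordinary-feed library 4 had 0.76 FPKM and the other 3 had 0.133 to 0.197 FPKM. NONMMUT150892.1 stood at 104 FPKM in high-fat library 4, against 19.9 to 23.9 FPKM in the other 3. No cause was tested for any of these.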

How the results depend on the processing

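Counts of members called moved by more than 1.5 times, or away from 0, as follows. For high-fat over ordinary feed, where 182 were called, 39 were called with no filter on low values, 102 with a filter of FPKM 2 (of the 576 members that passed it), 103 with median-ratio scaling and no high-fat library 4, and 80 with 2 groups in the fit. Median-ratio scaling called 147 (106 higher, 41 lower) and quantile normalization 130 (89 higher, 41 lower), against 65 higher and 117 lower without them. Leaving out 1 library gave 89 to 178. For resveratrol over high-fat feed, with 0 called, the count was 2 with a pseudocount of 0.1, 1 with 0.5, 2 with median-ratio scaling, 2 with quantile normalization, 1 with median-ratio scaling and no high-fat library 4, 2 with 2 groups in the fit, and 0 to 8 with 1 library left out. For metformin over high-fat feed, with 0 called, it was 3 with median-ratio scaling, 2 with quantile normalization, 2 with median-ratio scaling and no high-fat library 4, 2 with 2 groups in the fit, and 0 to 1 with 1 library left out.

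For resveratrol over ordinary feed, with 8 called, it was 5 with a pseudocount of 0.1, 0 with no filter, 20 with median-ratio scaling and no high-fat library 4, 4 with 2 groups in the fit, 5 with 1 member per locus, and 0 to 14 with 1 library left out. For metformin over ordinary feed, with 7 called, it was 4 with a pseudocount of 0.1 or 0.5, 0 with no filter, 16 with median-ratio scaling, 15 with quantile normalization, 46 with median-ratio scaling and no high-fat library 4, 4 with 2 groups in the fit, 4 with 1 member per locus, and 0 to 47 with 1 library left out. The 4-group test, with 51 called, gave 10 with no filter and 9 to 60 with 1 library left out. Resveratrol over metformin gave 0 throughout. The causes were not tested. Using 1 member per locus and an excess of at least 50 bases were chosen after seeing the data.

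For the named members, 8514 values under alternatives kept their direction and their side of the threshold, 121 lost the call, 65 gained it and 0 reversed. No paired analysis was possible because the labels give no replicate numbers that tie mice across groups. The median member rested on a mean of 39.9 reads per library.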
